A study of Chlorocebus aethiops with 30 samples.

Results

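Noncoding and pseudogene loci of Vero cells, an epithelial line from the kidney of the African green monkey, were examined directly after the cells had been detached with trypsin or with TrypLE, a recombinant substitute for trypsin. The loci are every gene of the authors' comparison table at 0 h whose biotype is not protein coding. They number 175 of the 1237 listed genes. By biotype they are 64 long noncoding RNAs (lncRNAs), 32 transcribed pseudogenes, 19 pseudogenes, 5 small nucleolar RNAs (snoRNAs), 1 small nuclear RNA (snRNA) and 1 locus of class misc_RNA. The other 53 have no biotype and no symbol, only a running number of the authors, and are named here by the protein they match in the authors' annotation. A further 122 loci carry a LOC number as their symbol, and 0 carry a conventional gene symbol.

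The study holds 30 wild-type samples in 10 groups of 3, sequenced as RNA libraries. Per-library values were used for 6 of them, namely trypsin at 37 °C and TrypLE at 37 °C, each harvested at 0 h, the moment digestion ended. Group means were used for these, for both enzymes after 8 h and 24 h of renewed culture, when cells were taken up without enzyme, and for a control detached at 37 °C by enzyme-free solution. The design text speaks of biological replicates, but the labels do not say that they are separate cultures, so p-values describe the spread between these libraries, which may be technical. The authors' table lists only genes with an unadjusted p below 0.05, so every locus differs between the groups by that rule, and counts of direction or of non-overlapping groups over the loci are descriptions. None of the 20 marker genes chosen for epithelium, kidney tubule, fibroblast, immune cells and endothelium is listed, so the labelled cell type could not be checked in this table.

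Pseudogenes are copies of genes that have lost, or are annotated as having lost, their protein-coding function. Many arose from a messenger RNA that was copied back into the genome, and abundant housekeeping transcripts such as those for ribosomal proteins have left many of them. Copies of mitochondrial DNA also lie in nuclear chromosomes, and lncRNAs are transcripts without an annotated protein, some of which host snoRNAs, guides for the chemical modification of other RNAs. Reads of a recent pseudogene and of its parent gene can be nearly identical, and how reads with several matches were counted is not given in the sources used here. The value of each pseudogene below is therefore uncertain as to the locus that gave the reads. Whether counting used the strand is not given either, which touches loci that overlap another gene.

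Called loci are those with a Benjamini-Hochberg (BH) adjusted p below 0.05 in the authors' deposited table, where the adjustment runs over 15194 genes. Of the 175 loci, 28 were called, which is 16.0%, against 20.3% of all listed genes and 1.65% of the genes tested by the authors. After trypsin 21 of the called loci were lower and 7 higher, against 17.5% and 2.83% of the listed genes called in these directions. A refit of the listed genes with edgeR called 19 of the loci, of which 14 were lower. TMM factors in place of the authors' size factors gave 12 calls in each direction. The libraries of the groups did not overlap in 143 loci (81.7%), against 75.6% of all listed genes. Over all 175 loci, 107 were lower and 68 higher after trypsin, with a median log2 fold change (trypsin over TrypLE) of -0.61 in the authors' deposited table, against 706 lower, 531 higher and a median of -0.29 over all listed genes. The share of called loci varied by biotype. It was 14 of 32 transcribed pseudogenes (12 lower, 2 higher), 3 of 19 pseudogenes (2 lower, 1 higher), 6 of 64 lncRNAs (all 6 lower), 5 of 53 loci without a biotype (1 lower, 4 higher) and 0 of the 5 snoRNAs, the snRNA and the misc_RNA. Depth differed between the biotypes as well. The median normalized count was 84.2 for transcribed pseudogenes, 24.0 for pseudogenes, 23.7 for lncRNAs and 53.5 for loci without a biotype, against 594 for listed protein-coding genes. Of the 175 loci, 54 are given an adjusted p of exactly 1 by the authors' deposited table, as are 47 coding genes, all with a mean of at most 13.07 normalized counts. Among the 121 loci above that level 28 were called (23.1%), and among protein-coding genes above it 22.0%. All 28 called loci had libraries that did not overlap between the groups.

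**Figure D1:**
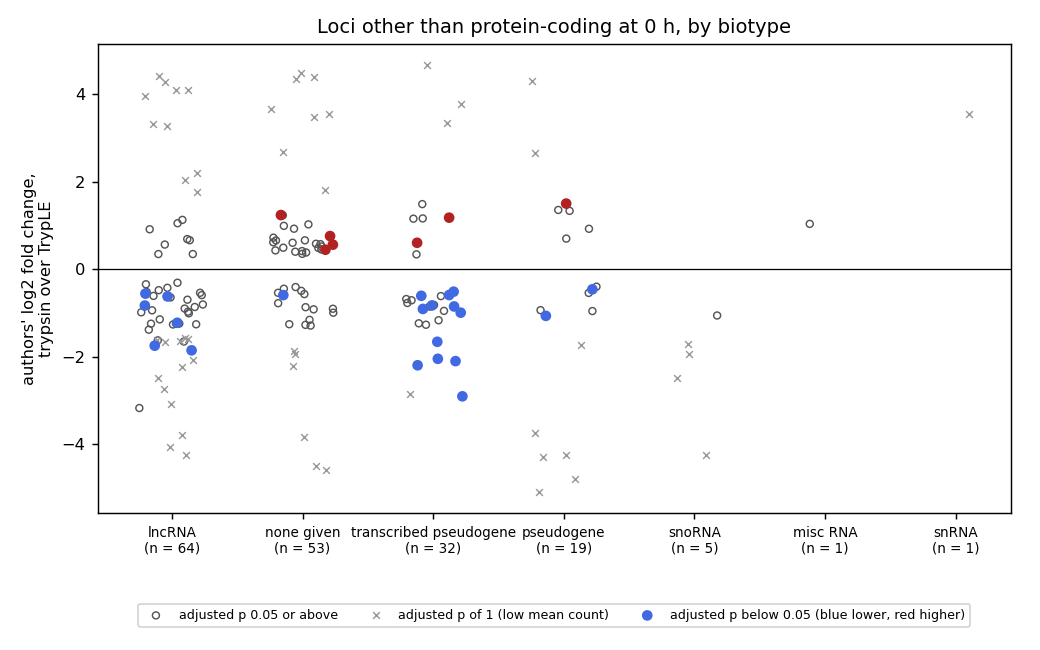
Log2 fold change (trypsin over TrypLE, vertical axis) of the 175 loci at 0 h in the authors' deposited table, by biotype along the horizontal axis, with 1 mark per locus. Filled points are called loci, 21 lower in blue and 7 higher in red, open circles are loci that were not called, and crosses are the 54 loci with an adjusted p of 1, which include the largest fold changes.

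A group of 3 loci, with the most abundant of all 175 among them, resembles mitochondrial genes. LOC119619963, a transcribed pseudogene of 1910 bases, is named ATP synthase subunit a-like, matches cytochrome c oxidase subunit 3 and carries a domain of NADH dehydrogenase chain 3, proteins that vertebrates encode side by side in mitochondrial DNA. It held 35163.2, 30185.1 and 28482.8 normalized counts with trypsin and 66604.9, 55521.7 and 64398.9 with TrypLE. The 3 trypsin libraries lay well below the 3 TrypLE libraries. The group means differed 1.99-fold, and LOC119619963 was called lower with a log2 fold change of -0.99 (BH-adjusted p = 1.43e-14) per the authors' deposited table. It ranked second by mean normalized count among all listed genes and held 1.62% to 1.97% of the listed normalized counts with trypsin and 2.8% to 3.25% with TrypLE.

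A locus without a biotype, of 1651 bases, matches cytochrome c oxidase subunit 1, the catalytic subunit of that enzyme, which mitochondrial DNA also encodes. This COX1 match had 9220.4, 7513.1 and 8733.5 normalized counts with trypsin and 12294.2, 10169.3 and 15874.0 with TrypLE. The lowest TrypLE library was still above the highest trypsin library, and replicate 3 was the highest of the TrypLE group. The authors' deposited table calls the COX1 match lower (log2 fold change -0.59, BH-adjusted p = 0.00546). LOC119623712, a pseudogene that matches NADH-ubiquinone oxidoreductase chain 1, a core subunit of complex I, had 2074.4, 1696.9 and 1905.1 normalized counts with trypsin and 2958.8, 2179.4 and 2659.7 with TrypLE. The gap between the groups was narrow, with replicate 1 of trypsin and replicate 2 of TrypLE nearest to each other. Its log2 fold change in the authors' deposited table was -0.46 (BH-adjusted p = 0.0382), the called value nearest to the threshold. Above the threshold the nearest was the lncRNA LOC103222820, with a log2 fold change of -0.64 (BH-adjusted p = 0.0501, per the authors' deposited table). All 3 loci with a mitochondrial match were thus lower after trypsin, and no listed gene has the symbol of 1 of the 13 mitochondrial proteins. Reads of nuclear copies and of mitochondrial transcripts could not be told apart. A refit with edgeR called LOC119619963 (log2 fold change -0.99, SE 0.123, BH-adjusted p = 2.04e-05) but neither the COX1 match (BH-adjusted p = 0.0508) nor LOC119623712 (BH-adjusted p = 0.216).

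**Figure D2:**
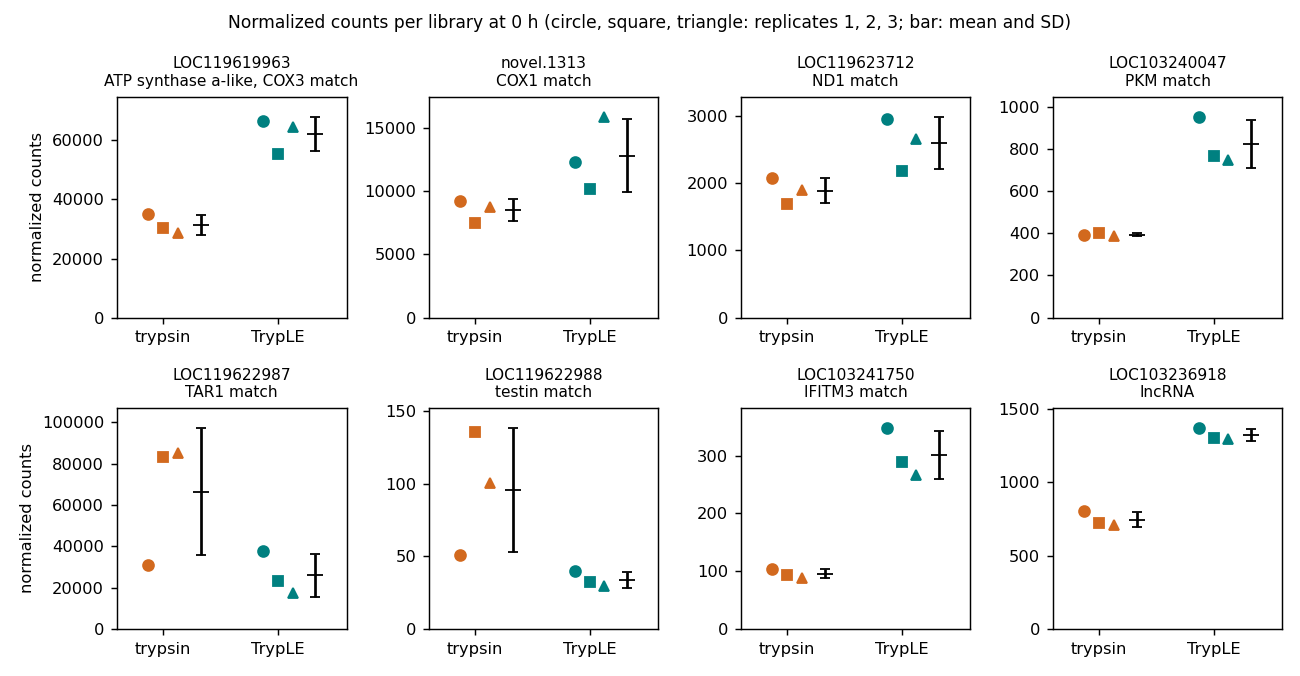
Normalized counts (vertical axes, each starting at 0) of 8 loci in the 3 trypsin and 3 TrypLE libraries at 0 h, with the symbol showing the replicate and the black bar the mean and SD of 3 libraries. Groups separate in 7 of the panels, while in that of LOC119622987 trypsin replicate 1 lies below TrypLE replicate 1.

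A pair of pseudogenes on 1 scaffold was higher after trypsin in most libraries. LOC119622987 matches TAR1, a yeast protein whose gene lies antisense within the ribosomal RNA repeat. It had 30808.1, 83382.9 and 84937.9 normalized counts with trypsin and 37643.7, 22957.1 and 17281.4 with TrypLE. Trypsin replicates 2 and 3 were far above the other 4 libraries, whereas trypsin replicate 1 was below TrypLE replicate 1, so the groups overlapped. The authors' deposited table gives LOC119622987 a log2 fold change of 1.35 without a call (BH-adjusted p = 0.263). Neither DESeq2 (BH-adjusted p = 0.328) nor limma called it (BH-adjusted p = 0.051 with a pseudocount of 1 and 0.0638 with 0.5). The edgeR refit called it (BH-adjusted p = 0.00378). That call was lost without TrypLE replicate 2 (BH-adjusted p = 0.0624), with the replicate block (BH-adjusted p = 0.0848) and with the length trend removed (BH-adjusted p = 0.271). This locus alone made up 1.72%, 4.92% and 4.84% of the listed normalized counts in the trypsin libraries. In the TrypLE libraries it made up 1.76%, 1.16% and 0.87%. The share of all 175 loci in the listed reads was 5.77%, 8.71% and 8.5% after trypsin and 7.08%, 5.98% and 6.41% after TrypLE, so that trypsin replicate 1 had the lowest share of the 6 libraries. Without LOC119622987, LOC119619963 and the COX1 match the other loci together had 27857.8, 26457.6 and 26908.1 normalized counts with trypsin and 34699.5, 29672.2 and 29519.0 with TrypLE, lower in every trypsin library. The same holds for all listed genes together, with 1786824.7, 1693769.9 and 1754036.7 with trypsin and 2136577.1, 1979857.2 and 1983208.0 with TrypLE.

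The second pseudogene of the pair, LOC119622988, matches testin, a protein of focal adhesions, and lies 37762 bases away on the same strand, and no other listed gene lies on that scaffold. Its normalized counts were 50.8, 135.7 and 100.6 after trypsin and 40, 32.1 and 29.4 after TrypLE. Each trypsin library was above each TrypLE library, again with replicate 1 lowest in the trypsin group and highest in the TrypLE group. The authors' deposited table calls LOC119622988 higher (log2 fold change 1.5, BH-adjusted p = 0.0037), and its edgeR call was lost in 3 of the 6 refits without 1 library, namely trypsin replicate 2, TrypLE replicate 1 and TrypLE replicate 2.

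Among pseudogenes of messenger RNAs, copies of ribosomal protein genes were the largest class. By their descriptions 19 pseudogenes belong to it, 17 lower and 2 higher after trypsin. The authors' deposited table calls 5 of them lower and 1 higher. That is 89.5% lower and 31.6% called, against 57.1% and 20.3% of all listed genes. The class has a median length of 766 bases, and of listed protein-coding genes under 1000 bases 94.3% were lower and 47.9% called. With a trend on gene length removed, edgeR called 0 of the 14 ribosomal protein pseudogenes it fitted, 12 of them lower and 2 higher. LOC103220177, which resembles RPS3A of the small ribosomal subunit, had 81.1, 94.9 and 63.5 normalized counts with trypsin and 576.9, 235.5 and 212.8 with TrypLE. TrypLE replicate 1 was more than double the other TrypLE libraries, and all 3 were above the trypsin group. LOC103220177 was called lower at a log2 fold change of -2.10 (BH-adjusted p = 0.00315) per the authors' deposited table and in each of the 6 edgeR refits without 1 library. LOC119627135 and LOC103233138 both resemble RPL17 of the large subunit. The former had 7.8, 6.1 and 8.5 normalized counts with trypsin and 44.8, 18.3 and 29.4 with TrypLE, and the latter 180.9, 103.1 and 144.0 against 296.3, 229.1 and 246.2. Both were lower without overlap, with log2 fold changes of -2.04 (BH-adjusted p = 0.029) and -0.85 (BH-adjusted p = 0.00907) per the authors' deposited table. Each lost its edgeR call in 3 of the 6 refits without 1 library.

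LOC119623681, resembling RPL3, fell from 1169 ± 131 normalized counts after TrypLE to 820 ± 66.4 after trypsin (mean ± SD of 3 libraries each). The authors' deposited table calls it lower (log2 fold change -0.51, BH-adjusted p = 0.00793), and the edgeR refit did not (BH-adjusted p = 0.111). The exception on the higher side was LOC103236321, which is named for RPL17 but matches alpha-enolase, an enzyme of glycolysis. It had 114.4, 121.4 and 148.3 normalized counts with trypsin and 35.1, 57.7 and 77.0 with TrypLE. All trypsin libraries were above all TrypLE libraries, and the authors' deposited table gives a log2 fold change of 1.18 (BH-adjusted p = 0.00505). Its edgeR call was lost without trypsin replicate 1, TrypLE replicate 1 or TrypLE replicate 2. The other member on the higher side, LOC119627927 (RPL26-like), rests on 13 reads in the trypsin libraries and 0 in the TrypLE libraries. TrypLE replicate 1 was the highest of the 6 libraries for 11 of the 19 ribosomal protein pseudogenes and for 446 of the 1237 listed genes. These sets differ in direction, since 17 of the 19 were lower after trypsin, against 706 of the 1237. Of the 107 loci lower after trypsin, TrypLE replicate 1 was the highest for 56, replicate 2 for 22 and replicate 3 for 29. The part of TrypLE replicate 1 in these results was not tested beyond the refits without it.

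A pseudogene of PKM and the more changed of the pair matching IFITM3 were called lower after trypsin in every refit. LOC103240047, a pseudogene that matches pyruvate kinase PKM, the last enzyme of glycolysis, had 391.0, 403.1 and 387.6 normalized counts with trypsin and 953.1, 768.9 and 747.8 with TrypLE. The trypsin libraries were close together at about the same level, and every TrypLE library was far above them. The difference was 2.09-fold between the group means, called lower with a log2 fold change of -1.06 (BH-adjusted p = 5.43e-11) per the authors' deposited table. LOC103241750, a transcribed pseudogene that matches IFITM3, a membrane protein that restricts the entry of enveloped viruses, had 104.6, 92.9 and 89.0 normalized counts with trypsin and 347.9, 288.7 and 266.5 with TrypLE. The groups were widely separated, with replicate 1 highest in both. The means differed 3.15-fold, at a log2 fold change of -1.66 and a BH-adjusted p of 8.07e-14 per the authors' deposited table. Together with LOC119619963 they were called by the authors' table, edgeR, DESeq2 and limma, as were several other loci, among them LOC103236918. Only these 3 also kept the edgeR call in all of the further settings. The settings were TMM or median-ratio factors, the replicate block, a trend on gene length removed, and each single library left out. All refits used the same 6 libraries and only the listed genes, so they are not independent of the authors' calls.

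A second IFITM3 match, LOC119623435, went from 318 ± 37.1 normalized counts after TrypLE to 209 ± 19 after trypsin (mean ± SD of 3 libraries each). Its log2 fold change of -0.61 passed in the authors' deposited table (BH-adjusted p = 0.0316) and not in edgeR (BH-adjusted p = 0.116). LOC103240482, which resembles the myosin light chain MYL6 of the actomyosin cytoskeleton, had 6.8, 7.1 and 6.4 normalized counts with trypsin and 97.5, 30.2 and 24.3 with TrypLE. TrypLE replicate 1 stood apart from the rest of its group, and the trypsin libraries were all low. LOC103240482 has the most negative log2 fold change of the called loci, -2.90 (BH-adjusted p = 0.000177), in the authors' deposited table, and its edgeR call was lost without TrypLE replicate 1.

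Copies of 3 genes for RNA-binding proteins were lower as well. LOC103247992, resembling hnRNP A1, a regulator of splicing, had 1432 ± 142 normalized counts with trypsin and 2154 ± 151 with TrypLE (mean ± SD of 3 libraries each). LOC103215068, resembling the poly(rC)-binding protein PCBP2, had 65.5 ± 7.83 and 123 ± 15.1, and LOC119625362, resembling LSM5, which binds the tail of U6 snRNA, had 5.45 ± 0.792 and 24.9 ± 3.17. In all 3 the trypsin libraries were below the TrypLE libraries. The authors' deposited table calls them lower, with log2 fold changes of -0.59 (BH-adjusted p = 0.000118), -0.91 (BH-adjusted p = 0.0241) and -2.19 (BH-adjusted p = 0.029). In edgeR the call of LOC103247992 was lost in 5 of the 6 refits without 1 library, and LOC103215068 was not called (BH-adjusted p = 0.0581). That of LOC119625362 was lost without trypsin replicate 1 or TrypLE replicate 1. LOC103243820, resembling OSTC, a subunit of the complex that attaches sugars to new proteins, was higher, with 352 ± 30 normalized counts with trypsin and 232 ± 16.6 with TrypLE. Its log2 fold change of 0.60 was called in the authors' deposited table (BH-adjusted p = 0.0156) but not by edgeR (BH-adjusted p = 0.0881).

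Listed protein-coding genes with the same protein match as a pseudogene could be set beside 16 pseudogenes, taking the most abundant such gene. In 13 of these pairs both were lower after trypsin in the authors' deposited table, and in 3 the signs differed. Of all listed protein-coding genes 56.4% were lower, and 94.3% of those under 1000 bases. The pairs are not all separate, since LOC119620499 and LOC103216492 each stand beside 2 pseudogenes. The copies LOC119627301, LOC119621206, LOC103223898 and LOC119627927 had 0 reads in 1 of the groups. For RPL37A, of the large ribosomal subunit, and its copy LOC103246132 the log2 fold changes in the authors' deposited table were -1.21 (BH-adjusted p = 1.73e-10) and -1.16 (BH-adjusted p = 0.157). RPS25 and its copy LOC103238226 had -1.0 (BH-adjusted p = 1.62e-12) and -0.95 (BH-adjusted p = 0.496) per the authors' deposited table, so that the copies had a similar value without passing. Their levels were far apart, with 2734 ± 350 normalized counts for RPS25 after trypsin and 5483 ± 630 after TrypLE, against means of 25.2 and 48.6 for the copy. Conversely LSM5 had a log2 fold change of -0.78 (BH-adjusted p = 0.00755) per the authors' deposited table, nearer to 0 than its called copy. The same holds for the IFITM3 pair, where the coding locus LOC119620499 had 2129 ± 224 normalized counts with trypsin and 2673 ± 51.5 with TrypLE and was not called (log2 fold change -0.33, BH-adjusted p = 0.152, in the authors' deposited table). The difference between a copy and its relative was not tested. In the SLC2A3 pair, named for a glucose transporter, the authors' deposited table gives 0.34 for the copy LOC103245191 (BH-adjusted p = 0.566) and -0.26 for SLC2A3 (BH-adjusted p = 0.403), neither of them called. All 51 listed protein-coding genes with a symbol starting RPL or RPS were lower, 34 of them called. So were all 39 with a symbol starting NDUF, COX, UQCR or ATP5, 25 of them called. Their median lengths were 725 and 713 bases, and of listed protein-coding genes under 1000 bases 94.3% were lower and 47.9% called.

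**Figure D3:**
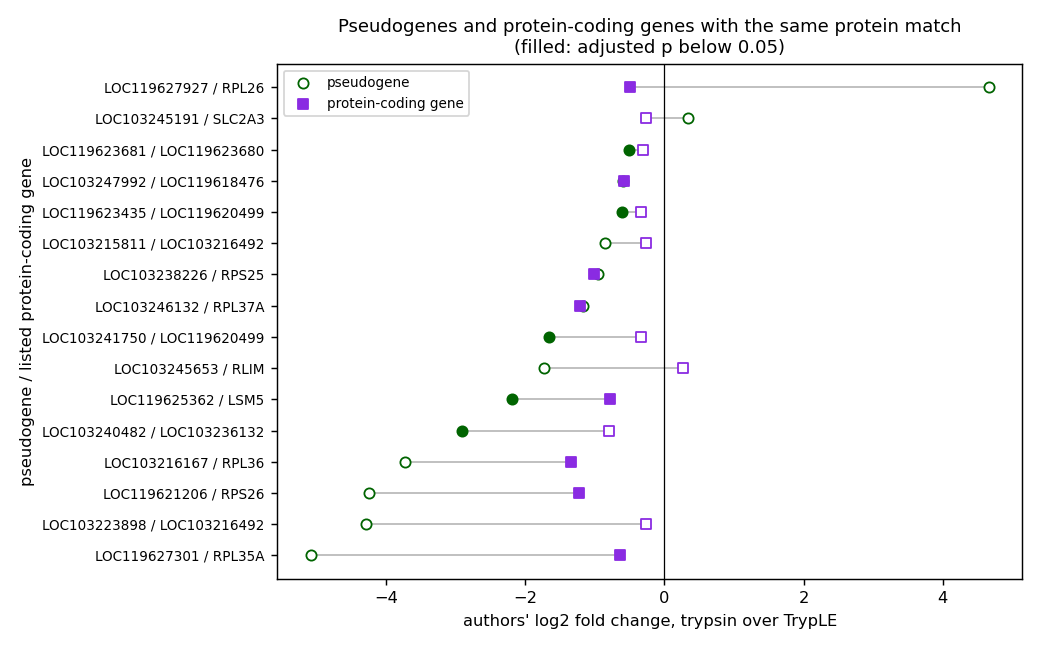
Log2 fold change (horizontal axis, trypsin over TrypLE, authors' deposited table) of 16 pseudogenes (circles) and of the most abundant listed protein-coding gene with the same protein match (squares), with filled marks for an adjusted p below 0.05. In 13 rows both marks are left of 0, and the widest gaps belong to copies with few reads.

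The lncRNAs were lower in 46 of 64 cases (71.9%, against 57.1% of all listed genes), and all 6 called ones were lower. The called share was 9.38%, against 20.3% of all listed genes. All 64 carry a LOC number as symbol, so a search by symbol for known lncRNAs and snoRNA host genes could find none. Whether any of them is such a gene under another name was not tested. LOC103242103 has a match to the putative protein of MIR22HG, a gene on the searched list. The snoRNA LOC119624602 lies on the same strand within the span of LOC103233820. Beyond protein matches and domains, the functions of the lncRNAs are not annotated. LOC103236918 had 801.6, 725.5 and 708.5 normalized counts with trypsin and 1371.2, 1302.3 and 1296.9 with TrypLE. Replicates were tight and the groups far apart, at a log2 fold change of -0.83 (BH-adjusted p = 8.67e-10) per the authors' deposited table. LOC103227585, of only 230 bases, is labelled an lncRNA but carries the domain of TMA7, a protein associated with the translation machinery in yeast. It had 248.3, 165.3 and 161.0 normalized counts with trypsin and 905.4, 561.8 and 459.0 with TrypLE. Replicate 1 was the highest in both groups, and the groups did not overlap. The means differed 3.35-fold, at a log2 fold change of -1.74 (BH-adjusted p = 0.0003) per the authors' deposited table. LOC103247522 had 20.5, 19.4 and 9.5 normalized counts with trypsin and 58.5, 68.7 and 51.7 with TrypLE. It was low in every trypsin library, at a log2 fold change of -1.85 (BH-adjusted p = 0.000774) per the authors' deposited table. These 3 lncRNAs kept their edgeR call without each single library, but none was called once a trend on gene length was removed (log2 fold changes of 0.0018, -0.47 and -0.96).

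LOC103231855, with 8697 bases the only long lncRNA called, had 96.8, 46.9 and 66.7 normalized counts with trypsin and 185.2, 128.3 and 178.3 with TrypLE. All TrypLE libraries were above all trypsin libraries, at a log2 fold change of -1.22 (BH-adjusted p = 0.00113) per the authors' deposited table, and the edgeR call was lost without TrypLE replicate 1. LOC103230560 had the highest level per kilobase of the lncRNAs, 2978 normalized counts per kilobase. Its libraries held 1751.8, 1374.5 and 1690.2 normalized counts with trypsin and 2666.4, 2289.4 and 2126.7 with TrypLE. LOC103241254 had 345.1, 227.5 and 302.9 against 483.4, 458.2 and 404.3. Both were lower in every trypsin library, with log2 fold changes of -0.56 (BH-adjusted p = 0.00256) and -0.62 (BH-adjusted p = 0.0268) per the authors' deposited table, and edgeR called neither (BH-adjusted p = 0.0654 and 0.0957). On the higher side no lncRNA was called, and the edgeR refit called 0 with the authors' size factors and 3 with TMM factors. The nearest to it was LOC103219495, with 117.3, 135.7 and 80.5 normalized counts with trypsin and 57.5, 67.8 and 51.7 with TrypLE (log2 fold change 0.91, BH-adjusted p = 0.0679, in the authors' deposited table), named after its values were seen. On the lower side LOC119623490, which matches an aldo-keto reductase, was called by edgeR and not by DESeq2 or limma. It had 3.9, 4.1 and 11.6 normalized counts with trypsin and 92.6, 3.7 and 80.0 with TrypLE. TrypLE replicate 2 was as low as the trypsin libraries, and the authors' deposited table does not call LOC119623490 (log2 fold change -3.17, BH-adjusted p = 0.282).

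LOC103242103 has a match to the putative protein of MIR22HG, the host transcript of miR-22, and was not called (log2 fold change -0.42, BH-adjusted p = 0.166, per the authors' deposited table). A protein match or a protein domain is annotated for 19 of the 64 lncRNAs.

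The loci without a biotype went mostly the other way, with 32 higher and 21 lower after trypsin. That is 39.6% lower and 9.43% called, against 57.1% and 20.3% of all listed genes. With 3000 bases or more 16 of 20 were higher, as were 370 of the 441 listed protein-coding genes of that length. Under 1000 bases 8 of 17 were higher, and from 1000 to under 3000 bases 8 of 16. Of the 53 loci without a biotype 35 have a protein match, 24 higher and 11 lower, and the 5 called loci are among them. The 18 without a match had a median of 5.60 normalized counts and no call. A locus of 3549 bases matches a zinc finger protein, of a family of DNA-binding factors. This zinc finger match had 351.9, 370.4 and 342.1 normalized counts with trypsin and 213.4, 217.2 and 198.6 with TrypLE. The groups were tight and separate, at a log2 fold change of 0.76 (BH-adjusted p = 0.000282) per the authors' deposited table. With edgeR its call was lost without trypsin replicate 2, TrypLE replicate 2 or TrypLE replicate 3. A locus of 1725 bases matches a putative protein of the noncoding gene LINC00596. This LINC00596 match had 85.0, 74.5 and 81.5 normalized counts with trypsin and 25.3, 40.3 and 36.5 with TrypLE. All trypsin libraries were above all TrypLE libraries, at a log2 fold change of 1.24 (BH-adjusted p = 0.00886) per the authors' deposited table, and kept its edgeR call in 2 of the 6 refits without 1 library.

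Sequences with a match to the ORF2 protein of LINE-1, the reverse transcriptase of the main autonomous retrotransposon of mammals, form 6 of the loci, 5 higher and 1 lower. That is 16.7% lower and 16.7% called, against 57.1% and 20.3% of all listed genes. Their median length is 4441 bases, and 370 of the 441 listed protein-coding genes with 3000 bases or more were higher as well. The most abundant of the 6 LINE-1 matches, of 6233 bases, had 1791.9, 1758.1 and 1715.6 normalized counts with trypsin and 1416.0, 1256.5 and 1192.6 with TrypLE. The lowest trypsin library was above the highest TrypLE library. It was the 1 called of the 6, with a log2 fold change of 0.45 (BH-adjusted p = 0.00808) per the authors' deposited table, and edgeR did not call it (BH-adjusted p = 0.178). The longest locus, with 16184 bases and a match to C8orf44, had 855 ± 54.3 normalized counts with trypsin and 579 ± 99.8 with TrypLE (mean ± SD of 3 libraries each). Its log2 fold change of 0.56 was called in the authors' deposited table (BH-adjusted p = 0.0103) and not in edgeR (BH-adjusted p = 0.105). A locus of 7896 bases matches MALAT1, an abundant nuclear lncRNA, and had 1459.5, 2174.4 and 2312.8 normalized counts with trypsin and 1855.6, 1328.0 and 1375.9 with TrypLE. As for LOC119622987, trypsin replicate 1 fell among the TrypLE libraries, and the MALAT1 match was not called in the authors' deposited table (log2 fold change 0.38, BH-adjusted p = 0.497) or in any refit.

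The small RNAs were at the lower limit of these libraries. All 5 snoRNAs were lower after trypsin, each at an unadjusted p below 0.05, as the listing rule requires. The authors' deposited table and DESeq2 called 0 of the 5. The edgeR refit called 0 of the 2 it fitted, and with the length trend removed 1 of these was lower and 1 higher. LOC119626450 and LOC119626451 are 2 copies of SNORD45, a guide for methylation of ribosomal RNA. The former had 18.6, 21.4 and 15.9 normalized counts with trypsin and 28.3, 39.4 and 48.6 with TrypLE, and the latter 3.9, 3.1 and 4.2 against 15.6, 11.0 and 16.2. Neither pair of groups overlapped, and the authors' deposited table gives log2 fold changes of -1.06 (BH-adjusted p = 0.4) and -1.93 (BH-adjusted p = 1). LOC119618496 (SNORD63) had 2.9, 5.1 and 4.2 normalized counts with trypsin and 15.6, 17.4 and 7.1 with TrypLE. LOC119624602 (SNORD26) had 2.9, 0 and 2.1 against 7.8, 6.4 and 14.2. It lies on the same strand within the span of the lncRNA LOC103233820, and whether they share reads was not tested. That lncRNA had 929 ± 82.2 normalized counts with trypsin and 1149 ± 71.6 with TrypLE (log2 fold change -0.31, BH-adjusted p = 0.35, in the authors' deposited table). LOC119618352 (U13, which acts in the processing of ribosomal RNA) had 0 reads after trypsin and 11 after TrypLE. With 3 reads over the group taken as the limit of a count of 0, its mean was 3.49-fold higher after TrypLE. The counting error of the 11 reads is not included in that value. The U6 snRNA LOC119627404, part of the spliceosome, had 5.9, 3.1 and 3.2 against 1.0, 0 and 0, and the misc_RNA LOC103224085 (NBPF member 20) had 41.1, 37.8 and 22.2 against 21.4, 13.7 and 14.2. Both were higher in every trypsin library and neither was called (BH-adjusted p = 1 and 0.537 in the authors' deposited table).

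In total 17 loci had 0 reads in all libraries of 1 group, 8 after trypsin and 9 after TrypLE. They rest on 9 to 20 reads in the other group. Set against the same limit, the mean of that group was 3.13-fold to 6.19-fold higher, without the counting error of the 9 to 20 reads themselves. The largest of these fold values belongs to LOC119627301, an RPL35A copy with 20 reads after TrypLE. A pair of loci overlap a listed protein-coding gene on the opposite strand, LOC119619046 with SRSF5 and LOC119621206 with ERCC4, and neither was called.

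Over all 175 loci, as over the listed coding genes, the share that was lower after trypsin was higher among short loci than among long ones, but not alike in every biotype. Of the 78 loci under 1000 bases 60 were lower and 18 higher, and the 14 called were all lower. Of the 57 from 1000 to under 3000 bases 34 were lower and 23 higher, with 6 called lower and 2 higher. Of the 40 with 3000 bases or more 13 were lower and 27 higher, with 1 called lower and 5 higher. Among listed protein-coding genes 266 of 282 under 1000 bases were lower, 262 of 339 of middle length, and 71 of 441 with 3000 bases or more. Of these genes 135 under 1000 bases were called (47.9%), 58 of middle length (17.1%) and 30 with 3000 bases or more (6.8%). In turn 131, 51 and 13 of these calls were lower. The share called was thus smaller for short loci than for short coding genes, and larger for long loci than for long ones. Median normalized counts were lower for the loci in each class, and the part of depth was not tested. The lncRNAs were lower in 25 of 30 cases under 1000 bases, 14 of 24 of middle length and 7 of 10 with 3000 bases or more, with a median log2 fold change per the authors' deposited table of -0.92, -0.75 and -0.81 in turn. Pseudogenes of both biotypes were lower in 21 of 24 cases under 1000 bases and higher in 8 of 10 with 3000 bases or more. Loci without a biotype were higher in 8 of 17 cases under 1000 bases, in 8 of 16 of middle length and in 16 of 20 with 3000 bases or more. Relative to the mean of the 6 libraries, 47 short loci above the low-count level had a median log2 value of -0.30, -0.49 and -0.45 with trypsin and 0.49, 0.38 and 0.34 with TrypLE. The 33 long loci above that level had 0.04, 0.31 and 0.19 after trypsin and -0.04, -0.20 and -0.30 after TrypLE, with replicate 1 of each group nearest to 0. When a trend on length fitted over all listed genes was removed, edgeR called 9 of the 175 loci, 3 lower and 6 higher, against 19 before, 14 lower and 5 higher. The trend was fitted on genes that include these loci, and removing it takes away any change that short loci share as well, and length and enzyme could not be told apart for them.

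**Figure D4:**
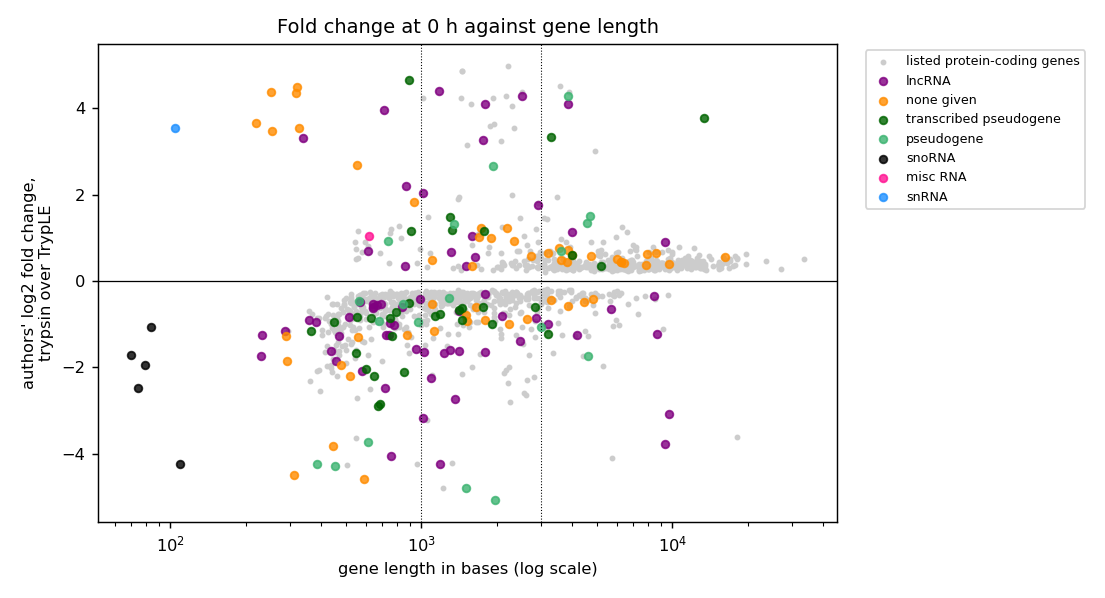
Log2 fold change (vertical axis, trypsin over TrypLE, authors' deposited table) against gene length in bases (horizontal log axis) for the 175 loci, coloured by biotype, over the 1062 listed protein-coding genes in grey. Dotted lines mark 1000 and 3000 bases, and 60 of 78 loci left of the first line are below 0, against 13 of 40 right of the second.

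The authors' union table gives 1 mean per group for 340 selected genes, on an FPKM scale (reads per kilobase and per sequencing depth) and without an error. It holds 21 of the loci, 16 of them called at 0 h. Since that contrast may have brought them into the table, their levels are a description. At 0 h the mean after trypsin was below that after TrypLE in 14 of the 21 and above it in 7, with a median ratio of 0.679, against 0.809 over all 340 genes. At 8 h trypsin was above TrypLE in 13 of 21 (median ratio 1.06, against 1.05 over all 340) and at 24 h in 15 of 21 (1.14 against 1.02). Of the 7 groups trypsin at 0 h was the lowest for 10 loci and TrypLE at 0 h for 6, while trypsin at 24 h was the highest for 9.

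LOC119619963, the mitochondrial match, had an FPKM-scale mean of 1667 in the control, 1039, 1818 and 2110 after trypsin at 0, 8 and 24 h, and 2071, 1451 and 1667 after TrypLE. It was lowest directly after trypsin. At 8 h it was above the control in the trypsin series and below it in the TrypLE series. LOC103241750, the IFITM3 match, had a mean of 23.7 in the control, 11.1, 33.1 and 46.0 after trypsin and 34.9, 21.6 and 27.2 after TrypLE, so that its lowest and its highest level were both in the trypsin series, 4.16-fold apart. LOC103227585, with the TMA7 domain, went through 52.8, 172 and 238 after trypsin around a control of 142, and 178, 135 and 111 after TrypLE. LOC103220177, the RPS3A copy, had 13.7 in the control, 5.93, 12.2 and 22.8 after trypsin and 25.4, 13.5 and 12.7 after TrypLE. In each of these 4 loci trypsin at 0 h was the lowest group. LOC103240047, the PKM copy, had its lowest mean in trypsin at 0 h and the next lowest in TrypLE at 24 h, with 15.6 in the control, 8.37, 16.4 and 14.9 after trypsin and 17.5, 14.7 and 9.92 after TrypLE.

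Some lncRNAs were low at 24 h after both enzymes. LOC103241254 had 46.7 in the control, 28.8, 49.8 and 23.1 after trypsin and 44.3, 78.8 and 18.7 after TrypLE. LOC103247522 had 7.40 in the control, 2.29, 7.40 and 2.34 after trypsin and 8.32, 9.86 and 3.35 after TrypLE. At 24 h the authors' mean was thus below the control after either enzyme in both. Some loci higher after trypsin than after TrypLE at 0 h were below the control after TrypLE. The testin match LOC119622988 had 1.02 in the control, 1.30 after trypsin and 0.458 after TrypLE at 0 h. The zinc finger match of 3549 bases had 6.77, 6.35 and 3.76, and the LINE-1 match of 6233 bases had 18.2, 17.9 and 13.1. In the LINC00596 match the values were 2.94, 2.96 and 1.26, and at 24 h 5.01 after trypsin and 4.74 after TrypLE. The MALAT1 match had 17.9 in the control, 15.9, 9.76 and 29.0 after trypsin and 12.2, 6.88 and 17.5 after TrypLE, lowest at 8 h and highest at 24 h in the series of either enzyme. With 1 mean per group none of these later differences could be tested.

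**Figure D5:**
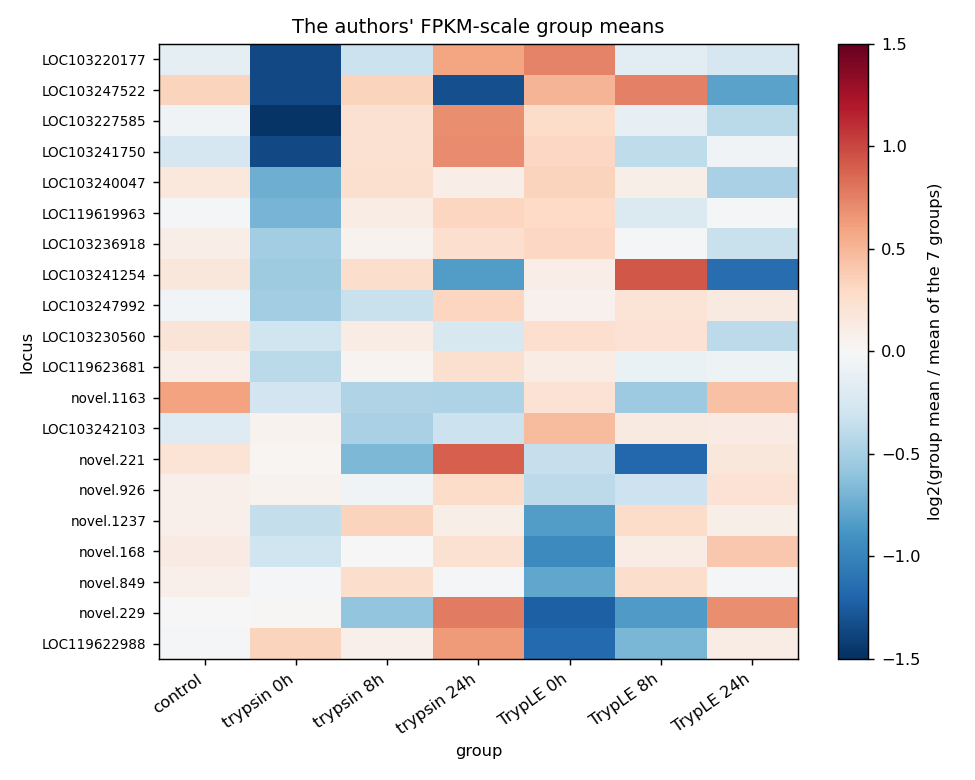
The authors' FPKM-scale means of 20 of the 21 loci in the union table (rows) in 7 groups (columns), coloured by log2 of each mean over the mean of the 7 groups and ordered by the difference between trypsin and TrypLE at 0 h. The blue block at the upper left shows loci lowest in trypsin at 0 h, such as LOC103241750 at 11.1, and the blue block at the lower right those lowest in TrypLE at 0 h, such as LOC119622988 at 0.458.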

How the data were processed

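RNA libraries of Vero cells were prepared with a NEBNext kit, per the labels' protocols, and the submitters' processing notes name HISAT2 2.0.5 and featureCounts 1.5.0-p3. Of the genome build, RNA selection, strand setting and differential test nothing is given in the sources used here. Per library the authors deposited a signal, read counts divided by a size factor, and 100% of values gave whole reads within 0.01 reads, on 98 to 146 low values per library. Size factors ran from 0.9443 to 1.0911, and reads over the listed genes from 1656319 to 2192333 per library. The log2 fold change and the p-value are the authors' deposited values, and the adjusted p equals a Benjamini-Hochberg adjustment over 15194 genes. The union table's means are on an FPKM scale, inferred from its values (normalized count per kilobase divided by 15.73, coefficient of variation 0.108%), which the authors do not name. The 3 groups treated with cold TrypLE (9 samples) were not analysed here.

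The authors' adjusted p below 0.05 is the main result, because a fit over all genes cannot be made from a table cut at an unadjusted p of 0.05. Refits of all listed genes used R 4.3.3 with edgeR 4.0.16 (quasi-likelihood) and DESeq2 1.42.0, and with limma 3.58.1, on recovered reads or log2(normalized count + 1), tested on simulated data, with the adjustment over 15194 genes. The edgeR count test called 170 of 1147 listed genes fitted (14.8%). The refits estimate variances from genes that were selected for a difference between these same libraries. Other steps used Python 3.11.15, pandas 2.3.3, numpy 2.4.6 and matplotlib 3.10.9. Named loci are the called ones, except 1 that is not reported here, the 2 highest per kilobase in each biotype, those in the union table, those nearest the threshold, and their coding relatives or overlapping genes; others were chosen after their values were seen. Protein matches are those of the authors' annotation. The loci and lists were chosen with earlier results of these data known.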

Additional observations from a re-analysis of the deposited data

How the results depend on the processing

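Of the 28 loci called in the authors' deposited table, edgeR called 17, DESeq2 20 and limma 16. In all, edgeR called 19 loci (5 higher, 14 lower), DESeq2 20, limma 18 with a pseudocount of 1 (13 lower) and 17 with one of 0.5 (4 higher, 13 lower). TMM factors taken from the listed genes gave 24 edgeR calls (12 higher, 12 lower) and with median-ratio factors 20 (11 higher, 9 lower). These factors moved the median log2 fold change of the listed genes from -0.29 to -0.14 and -0.10, and that of the loci from -0.60 to -0.44 and -0.40. Without 1 library the edgeR counts ran from 12 (TrypLE replicate 1) to 22 (TrypLE replicate 3), with 0 (TrypLE replicate 2) to 6 higher and 8 to 18 lower. The replicate block gave 19 calls (4 higher, 15 lower). Over the listed genes, libraries with the same number did not deviate together (correlations of 0.00, 0.07 and -0.05). These genes were selected for a difference between the groups, so the correlations cannot decide whether the numbers pair the samples. With the length trend removed edgeR called 9 (6 higher, 3 lower), 5 of them among the 28, and the log2 fold change turned from lower to higher for 14 of the 126 loci fitted, 0 of them called there. Among the loci named above these were LOC103236918 (0.0018), LOC103230560 (0.15), LOC119623681 (0.045), LOC103241254 (0.090), LOC119623712 (0.33), LOC119626450 (0.70) and LOC103242103 (0.091). At an adjusted p of 0.01 the authors' table calls 19 loci and at 0.1 it calls 35. Of the 175 loci 100 have a mean under 50 normalized counts, and the part of depth in the calls was not tested. Causes of these changes were not tested.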
